A study of Mus musculus with 3 samples.

Results

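The genes described here encode the subunits of the mitochondrial respiratory chain that are made from nuclear DNA. They were chosen by name among protein-coding genes: the Nduf subunits of complex I, Sdha to Sdhd of complex II, the Uqcr genes of complex III, Cox4 to Cox8 of complex IV, the Atp5 genes of complex V, and Cycs, which encodes cytochrome c. The rule found 86 of 54532 genes: 37 of complex I, 4 of complex II, 8 of complex III, Cycs, 18 of complex IV and 18 of complex V. Atp5o carries 2 identifiers, so the members have 85 symbols. No measured value entered the choice.

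RNA was sequenced from 3 cultures of RAW264.7, a mouse macrophage line that turns into osteoclasts (bone-resorbing cells) under the cytokine RANKL. All cells were wild type and were cultured with RANKL for 3 days. In 1 library, labelled 0 h, they received nothing more. In the others 10 mU/mL TSH (thyroid-stimulating hormone) was then added for 2 h or for 24 h. No library of RANKL alone is labelled 2 h or 24 h, so TSH and further time in culture cannot be told apart. The deposited columns for TSH are called T1 and T2, and their names do not say which is 2 h and which is 24 h, so no order in time was read from them. Cultures are a single line, with 1 library per group, so no difference below has a replicate check or a p-value. The libraries held 16156926, 16809034 and 17390744 reads (RANKL alone, T1 and T2). All 8 osteoclast markers and 4 of 5 macrophage markers averaged 1 FPKM or more, against 0 of 5 osteoblast or fibroblast markers, 0 of 4 lymphocyte markers and 0 of 4 striated muscle markers. The summed level of the osteoclast markers (RANKL alone, T1, T2) was 3082, 2560 and 2484 FPKM, and that of the macrophage markers 969, 937 and 921 FPKM. Most of the osteoclast sum is Ctsk, at 1337, 983 and 980 FPKM, and Acp5, at 972, 857 and 822 FPKM, while Nfatc1 stood at 165, 173 and 159 FPKM. Most of the macrophage sum is Cd68, at 578, 562 and 548 FPKM, and Csf1r, at 388, 371 and 370 FPKM. The other macrophage markers were low: Adgre1 at 1.82, 2.56 and 2.43 FPKM, Itgam at 1.05, 1.59 and 0.931 FPKM, and Mrc1 with 2, 2 and 1 reads. What part these marker levels have in the changes of the subunit genes was not tested. In RNA from whole cultures, fewer cells of a type and less RNA per cell cannot be told apart.

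The respiratory chain passes electrons from NADH (complex I) and succinate (complex II) through ubiquinone, complex III, cytochrome c and complex IV to oxygen. Complexes I, III and IV pump protons across the inner mitochondrial membrane, and complex V, the ATP synthase, uses their return to make ATP. Complexes I, III, IV and V are built from both nuclear and mitochondrial gene products, whereas all subunits of complex II are nuclear-encoded. Osteoclasts are rich in mitochondria.

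Several members exist as near-identical sequences elsewhere in the genome, which decides how their reads can be read. Subunit c, which forms the rotating ring of complex V, comes from Atp5g1, Atp5g2 and Atp5g3. The last 75 codons of these 3 genes encode the same protein, and of 57 bases that vary among them 52 are at the third position of a codon. The first 90 of these bases are shown from the GENCODE M21 transcripts (GRCm38), because they keep the 3 genes apart in read counting; capitals mark bases that differ among the 3.
Atp5g1: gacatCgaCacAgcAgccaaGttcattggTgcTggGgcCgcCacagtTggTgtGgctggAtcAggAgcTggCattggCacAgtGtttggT
Atp5g2: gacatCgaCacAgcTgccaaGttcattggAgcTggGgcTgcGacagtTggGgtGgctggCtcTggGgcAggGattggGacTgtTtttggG
Atp5g3: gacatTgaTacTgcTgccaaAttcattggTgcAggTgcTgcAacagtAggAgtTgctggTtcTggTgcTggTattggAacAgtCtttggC
The genes lie on chromosomes 11, 15 and 2. Processed pseudogenes, copies made from mRNA, lie closer. The coding part of Atp5g1 differs from the pseudogene Gm10039, also on chromosome 11, at 1 of 408 bases, and a stretch of 90 bases around it is shown with that base in capitals.
Atp5g1: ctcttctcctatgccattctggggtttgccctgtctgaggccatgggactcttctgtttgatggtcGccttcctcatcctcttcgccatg
Gm10039: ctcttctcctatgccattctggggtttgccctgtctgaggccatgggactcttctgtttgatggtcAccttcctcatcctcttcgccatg
For Ndufa12 (chromosome 10), a matrix-arm subunit of complex I, and the pseudogene Gm15920 (chromosome 5), 2 of 399 aligned coding bases differ, and the capitals mark the difference that falls in the 90 bases shown.
Ndufa12: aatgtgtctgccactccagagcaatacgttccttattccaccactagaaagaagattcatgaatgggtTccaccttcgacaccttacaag
Gm15920: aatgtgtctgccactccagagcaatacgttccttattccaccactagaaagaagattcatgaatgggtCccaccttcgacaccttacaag
The coding part of Atp5l, a membrane subunit of complex V, did not differ from the pseudogene Gm10221 at any of 309 bases.

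The promoters were searched for the sites of factors known to drive nuclear genes of mitochondria, with RefSeq's windows of 250 bases before to 50 after each start (GRCm38.p6), on both strands. A window was found for 67 of the 86 members. The NRF1 motif GCGCATGCG occurred in 9 of 67 (13.4%), against 1.95% of 27025 genes and 4.80% of the 7830 that averaged 1 FPKM or more. The YY1 motif AAGATGGCG occurred in 7 members (10.4%), against 1.64% and 4.36%. The ERRA motif AAGGTCA occurred in 8 (11.9%), against 5.38% and 3.74%, and the CREB motif TGACGTCA in 5 (7.46%), against 2.03% and 3.92%. The ETS motif CCGGAAG, which GABPA binds, occurred in 16 (23.9%), against 9.93% of all genes and 23.2% of the expressed ones, a share close to that of the members. The median GC content of the windows was 57.3% in members and 61.3% in expressed genes. A match is a run of letters and not a shown binding site. The 100 bases before the start are given for members of complexes I and V and for Cycs in which the NRF1 motif lies in that stretch, with the motif in capitals: Ndufa8 (chr2:36049339-36049438, minus strand), Ndufa11 (chr17:56717662-56717761, plus strand), Cycs (chr6:50566570-50566669, minus strand), Atp5g2 (chr15:102671048-102671147, minus strand) and Atp5k (chr5:108434400-108434499, minus strand).
Ndufa8: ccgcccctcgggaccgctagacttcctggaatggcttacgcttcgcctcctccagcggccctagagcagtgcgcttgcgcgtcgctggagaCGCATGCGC
Ndufa11: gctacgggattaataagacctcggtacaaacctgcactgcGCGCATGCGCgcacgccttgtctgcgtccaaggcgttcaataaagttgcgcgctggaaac
Cycs: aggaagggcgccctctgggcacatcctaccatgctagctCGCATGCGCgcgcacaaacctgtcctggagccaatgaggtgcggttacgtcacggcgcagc
Atp5g2: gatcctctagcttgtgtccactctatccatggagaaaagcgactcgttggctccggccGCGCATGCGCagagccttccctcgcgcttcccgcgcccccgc
Atp5k: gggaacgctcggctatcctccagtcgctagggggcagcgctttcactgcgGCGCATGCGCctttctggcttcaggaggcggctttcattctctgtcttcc
Among members past the filter on low values, the 9 with the NRF1 motif had a median level of 98.7 FPKM and the 54 without it 79.1 FPKM. Their median log2 changes were -0.036 and -0.025 in T1 against RANKL alone, -0.05 and -0.03 in T2 against RANKL alone, and 0.010 and -0.029 in T2 against T1. The factors themselves were measured as well. Nrf1 stood at 3.96, 4.26 and 3.95 FPKM (RANKL alone, T1, T2) and Gabpa at 18.1, 18.2 and 18.8 FPKM. Ppargc1a, the coactivator known for driving mitochondrial genes in muscle and brown fat, had 0 reads in each library, whereas its relative Ppargc1b, known in osteoclasts, stood at 15.8, 15.1 and 13.8 FPKM.

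The members were among the more abundant mRNAs of these cells. Of the 86, 78 averaged 1 FPKM or more over the 3 libraries, the filter used here; 75 reached 10 and 29 reached 100 FPKM. Those 29 are 37.2% of the members past the filter, against 4.49% of the 9497 protein-coding genes that passed it. The members' median level was 84.2 FPKM, above 94.6% of those genes. The 3 genes taken as markers of the set were detected: Ndufs1 at 24.8, 22.3 and 22.4 FPKM, Cox5a at 90.4, 86.0 and 88.2, and Atp5b at 463, 454 and 434. FPKM divides reads by the deposited gene length, which equalled the union of annotated exons for 80 of 86 members and was 1.64 times the length of a single coding mRNA in the median member and 12.4 times at most. The order of levels therefore depends on the length chosen.

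**Figure D1:**
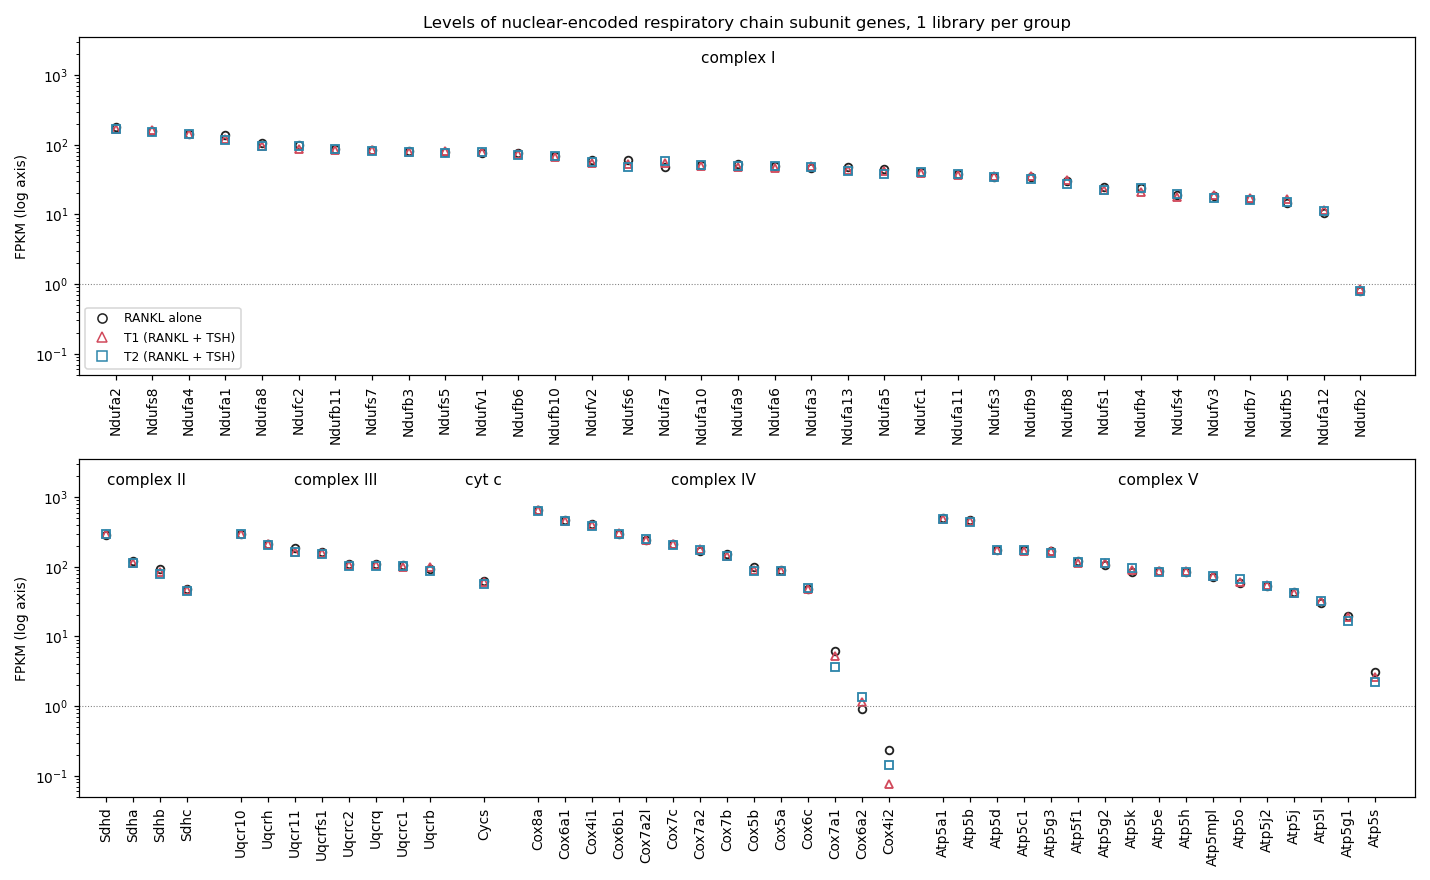
FPKM (log axis) of members with reads in all 3 libraries, in order of level within each complex; the symbols stand for the single libraries of RANKL alone, T1 and T2, and the dotted line is 1 FPKM. The symbols of a member nearly coincide except for low genes such as Cox7a1, and complexes I to V each hold members that differ several-fold in level.

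The 8 members under the filter were of several kinds. Ndufb2, a small membrane-arm subunit of complex I, had 73, 79 and 79 reads, which over its deposited gene length of 5628 bases gave 0.804, 0.837 and 0.801 FPKM. Per length of its mRNA its mean was 10.1 FPKM. Ndufa4l2, a paralogue of Ndufa4 known to be induced by hypoxia, had 0, 2 and 2 reads. Cox4i2, the isoform of lung, had 3, 1 and 2 reads, and Cox6b2, the testis isoform, 0, 0 and 1. Cox7b2, Cox8b, Cox8c and the second identifier of Atp5o had 0 reads in each library. In a 1 kb gene 3 reads amount to 0.186, 0.179 and 0.171 FPKM in the 3 libraries, so the named genes with 0 to 3 reads were not detectable at this depth rather than shown to be absent. The second identifier of Atp5o lies over its whole length within annotated Atp5o and Donson on the same strand, so its 0 reads say nothing of a level.

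Across the 78 members the libraries differed little. The gap between the highest and the lowest library was under 10% of the mean in 54 members, with a median of 6.32%. No member passed the size rule of a 2-fold change (an absolute change of at least 1 in log2 of FPKM + 1) in any of the 3 comparisons. Of the 11069 genes past the filter, 1.04% passed it in T1 against RANKL alone, 0.768% in T2 against RANKL alone and 0.831% in T2 against T1. The largest change of a member was 0.21 in T1, for Ndufa7, and -0.63 in T2, for Cox7a1, whose reads numbered 53, 47 and 34 (RANKL alone, T1, T2). Whole reads could be recovered from the FPKM, which gave each ratio of FPKM an exact 95% interval for counting error. A gene whose interval leaves out 1 is called beyond counting error; this compares libraries, not conditions, and well covered genes reach it at small changes.

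In T1 against RANKL alone 17 of 78 members (21.8%) were lower beyond counting error and 5 (6.41%) higher, where all genes gave 12.2% lower and 10.8% higher. The members' median log2 change was -0.03, against -0.001 over all genes. With each library scaled to the same total FPKM the T1 counts were 28 lower and 3 higher, where all genes gave 16.3% and 7.5%. In T2 against RANKL alone 28 members (35.9%) were lower and 6 (7.69%) higher, where all genes gave 13.2% and 10.2%, with medians of -0.05 and -0.002. Members are better covered than most genes, and genes of like level are the nearer background. Against that background the members did not hold a steady excess of lower calls. Among protein-coding genes at 100 to 1000 FPKM, 27.0% were lower and 35.5% higher in T1, against 24.1% and 6.90% of the 29 members in that range. In T2 38.7% of those genes were lower and 23.8% higher, against 48.3% and 6.90% of the members. At 50 to 100 FPKM, with 25 members, 28.0% of members were lower in T1 against 23.5% of genes, and 24.0% in T2 against 31.0%. At 10 to 50 FPKM, with 21 members, 14.3% of members were lower in T1 against 15.4% of genes, and 28.6% in T2 against 16.9%. The share of members that were higher was below that of genes in each of these ranges in T1 and T2. Both TSH comparisons use the same library of RANKL alone, so they are not independent of each other. In T2 against T1 13 members were lower and 3 higher beyond counting error, where all genes gave 10.1% and 7.93%. Genes of like level gave more lower calls than members at 100 to 1000 FPKM, 41.2% against 17.2%, and at 50 to 100 FPKM, 22.4% against 12.0%, and fewer at 10 to 50 FPKM, 10.6% against 23.8%. T2 against T1 turned with the scaling: the members' median was -0.02 as deposited and 0.013 with each library scaled to the same total FPKM. At that scaling 4 members were lower and 11 higher, where all genes gave 5.63% and 14.1%. Summed over the 78 members, reads scaled to depth in T1 were 0.981 times those of RANKL alone (95% counting interval 0.976 to 0.986), and in T2 0.965 times (0.959 to 0.970). The same sums over all genes gave 1.001 and 0.990. Depth here is the one that the deposited FPKM imply. The summed reads given above differed from it by 0.178%, 0.241% and -0.757% (RANKL alone, T1, T2), so scaling to them would raise the T2 ratios slightly.

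**Figure D2:**
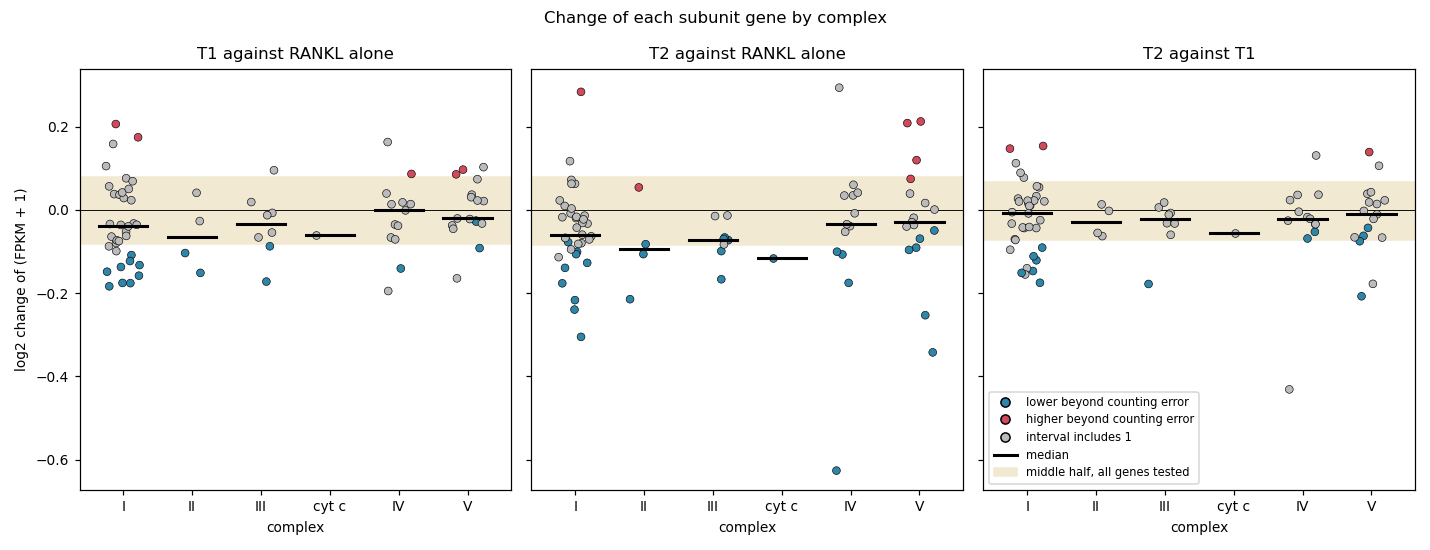
Log2 change of (FPKM + 1) for each of the 78 members past the filter, by complex, in the 3 comparisons; colour shows whether the counting interval left out 1, black bars are medians, and the shaded band is the interquartile range of all 11069 genes. Most points lie inside or near the band, and in T2 against RANKL alone the median of each complex is below 0.

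Complex I is the NADH dehydrogenase, an L-shaped assembly whose matrix arm holds the flavin and the iron-sulphur clusters and whose membrane arm pumps protons. Of its 37 genes 35 passed the filter, with a median level of 50.7 FPKM, or 94.8 FPKM per length of mRNA, the lowest of the multi-subunit complexes on both scales. On FPKM the highest were Ndufa2, Ndufs8 and Ndufa4, and Ndufa12 was the lowest past the filter, at 10.4, 11.7 and 11.3. Per length of mRNA Ndufa4 was the highest, with a mean of 436 FPKM, and Ndufv3 the lowest past the filter, with 28.9 FPKM. Ndufa4 keeps a complex I name but is known as a subunit of complex IV; it stood at 144, 141 and 143 FPKM. The core subunits that carry electrons differed in level. Ndufv1, which holds the flavin, stood at 77.2, 78.7 and 78.4 FPKM. Ndufv2, its iron-sulphur partner, stood at 60.0, 55.5 and 56.6 FPKM, which was lower in T1 beyond counting error. Ndufs1, the largest subunit, was lower in both TSH libraries, by ratios of 0.898 (0.854 to 0.944) and 0.904 (0.861 to 0.950).

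Against RANKL alone, T1 had 9 complex I members lower and 2 higher beyond counting error, and T2 had 9 and 1, with median log2 changes of -0.04 and -0.06. The lower calls are 25.7% of the 35 in each. These members ran from 11.1 to 171 FPKM around a median of 50.7. Protein-coding genes at 50 to 100 FPKM gave 23.5% lower in T1 and 31.0% in T2, and those at 10 to 50 FPKM gave 15.4% and 16.9%. The share of complex I was above that of the 10 to 50 range in both comparisons and below that of the 50 to 100 range in T2. The largest fall in T2 was that of Ndufs6, an accessory matrix-arm subunit that binds zinc: 60.1, 53.7 and 48.4 FPKM. Both TSH libraries were below RANKL alone, T2 the lower, with ratios of 0.894 (0.812 to 0.985) and 0.806 (0.730 to 0.889). Ndufa5, another matrix-arm accessory subunit, stood at 44.6, 41.5 and 37.6 FPKM, with T2 the lowest at a ratio of 0.843 (0.759 to 0.937). Ndufa1, a membrane-arm subunit encoded on the X chromosome, stood at 138, 122 and 119 FPKM and was lower in both TSH libraries. Ndufa7 went the other way. This matrix-arm accessory subunit stood at 47.7, 55.1 and 58.2 FPKM, higher in both TSH libraries, with ratios of 1.16 (1.07 to 1.25) and 1.22 (1.14 to 1.31). Ndufb5 was the other member higher in T1, with 14.6, 16.6 and 15.3 FPKM, highest in that library. Ndufb4 was lowest in T1, with 24.0, 21.2 and 23.6 FPKM. Ndufs4 was highest in T2, with 18.8, 17.8 and 19.8 FPKM, but its T2 interval against RANKL alone includes 1. Ndufb8 was lowest in T2, at 30.0, 31.5 and 27.8 FPKM, and Ndufb9 likewise, at 34.8, 35.8 and 32.0 FPKM with an interval that includes 1. The 16 matrix-arm and the 18 membrane-arm members gave nearly the same summed ratio: 0.977 and 0.977 in T1, and 0.967 and 0.962 in T2.

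Complex II is succinate dehydrogenase, an enzyme of both the tricarboxylic acid cycle and the chain. Its parts differed. Sdha, the flavoprotein that oxidises succinate, stood at 123, 114 and 114 FPKM. Sdhb, the iron-sulphur protein, stood at 92.8, 83.4 and 79.8 FPKM. Both were lower in both TSH libraries. The membrane anchors were not lower together: Sdhc stood at 47.8, 46.9 and 45.1 FPKM and was lower beyond counting error in T2 alone, while Sdhd, at 284, 292 and 295 FPKM, was higher in T2. Summed reads of the matrix pair were 0.921 times RANKL alone (0.897 to 0.945) in T1 and 0.908 times (0.885 to 0.932) in T2. Those of the anchor pair were 1.01 times in both, with intervals of 0.984 to 1.05 and 0.979 to 1.04. The intervals of the pairs did not overlap in either comparison, but they cover counting error only. Whether the parts differ between conditions was not tested. Of the 4 members T1 had 2 lower and 0 higher, and T2 had 3 and 1. All genes gave 12.2% lower and 10.8% higher in T1, and 13.2% and 10.2% in T2. Protein-coding genes at 100 to 1000 FPKM gave 27.0% and 38.7% lower.

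Complex III, the cytochrome bc1 complex, passes electrons from ubiquinol to cytochrome c. All 8 members passed the filter, and their highest level was 3.15 times the lowest on FPKM and 3.36 times per length of mRNA, the narrowest range of the complexes on both scales. In T1 6 of 8 were below RANKL alone and 2 of them (25%) beyond counting error. In T2 8 of 8 were below and 5 (62.5%) beyond. Of protein-coding genes at 100 to 1000 FPKM, 27.0% were lower in T1 and 38.7% in T2. Uqcrfs1, the Rieske iron-sulphur protein, stood at 161, 159 and 153 FPKM, lowest in T2 at a ratio of 0.950 (0.907 to 0.996). The core proteins Uqcrc1 and Uqcrc2 are relatives of the peptidases that cut import signals. Uqcrc1 stood at 107, 101 and 102 FPKM, and Uqcrc2 at 109, 104 and 104 FPKM. Of the small subunits Uqcr11 had the largest fall, at 186, 165 and 166 FPKM, with both TSH libraries below RANKL alone at ratios of 0.887 (0.831 to 0.946) and 0.890 (0.835 to 0.949). Uqcrb, next to the ubiquinone site, was highest in T1 and lowest in T2, at 93.6, 100.01 and 88.3 FPKM. Its intervals against RANKL alone include 1 in both. Uqcr10 and Uqcrh, the highest of the complex on FPKM, stood at 295, 299 and 292 and at 210, 209 and 208 FPKM, with intervals that include 1. Uqcrq, which per length of mRNA was the highest, with a mean of 477 FPKM, was lower in T2 at a ratio of 0.933 (0.888 to 0.980). Cyc1, the haem-bearing cytochrome c1, falls outside the name rule; it stood at 148, 138 and 137 FPKM and was lower in both TSH libraries beyond counting error.

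Cytochrome c, the mobile carrier between complexes III and IV that also takes part in apoptosis, is encoded by Cycs. It stood at 62.4, 59.8 and 57.5 FPKM, highest with RANKL alone and lowest in T2. T1 against RANKL alone gave 0.958 (0.914 to 1.005), an interval that includes 1, and T2 gave 0.921 (0.879 to 0.966). Cycs has 8 copies with reads, and with their reads added the ratio in T2 was 0.914.

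Complex IV, cytochrome c oxidase, is where oxygen is reduced, and its nuclear subunits are known for isoforms that differ between tissues. The ubiquitous isoforms were the abundant ones here. Cox8a was the highest member on FPKM, at 649, 655 and 632, followed in this complex by Cox6a1 at 464, 453 and 448 and Cox4i1 at 411, 400 and 382. Per length of its mRNA Cox4i1 was higher than Cox8a, with means of 827 and 640 FPKM. Cox6b1 stood at 293, 301 and 300 FPKM, Cox7a2 at 168, 178 and 175 and Cox7b at 151, 144 and 141. The heart and muscle isoforms were near the floor or low: Cox6a2 had 10, 13 and 16 reads, Cox8b none, and Cox7a1 53, 47 and 34 reads. Muscle markers were all below 0.04 FPKM. Cox7a1 stood at 6.14, 5.24 and 3.63 FPKM, lowest in T2 at a ratio of 0.590 (0.372 to 0.925), and was the single member to pass a 1.5-fold rule there.

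In T1 against RANKL alone 1 complex IV member was lower and 1 higher beyond counting error, and in T2 4 were lower and none higher, with median log2 changes of -0.001 and -0.03. The lower calls are 7.69% and 30.8% of 13, below the 27.0% and 38.7% of protein-coding genes at 100 to 1000 FPKM. Some members lie under that range, the lowest at 1.13 FPKM, and genes at 50 to 100 FPKM gave 23.5% and 31.0% lower. Cox5b, a zinc-binding subunit, stood at 99.6, 90.2 and 88.1 FPKM, with both TSH libraries lower. Cox4i1, which is known to sense the ATP level, was lower in T2 at a ratio of 0.928 (0.903 to 0.954). Its partner Cox5a did not pass in either comparison, with ratios of 0.951 (0.905 to 1.001) and 0.976 (0.929 to 1.03). Cox7a2 was higher in T1 at a ratio of 1.06 (1.01 to 1.12). Cox7a2l, a paralogue that joins complexes III and IV into supercomplexes, was even, at 243, 243 and 249 FPKM. Cox6c had the lowest FPKM of the ubiquitous subunits, 47.6, 48.3 and 49.1, but a mean of 343 FPKM per length of its mRNA.

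**Figure D3:**
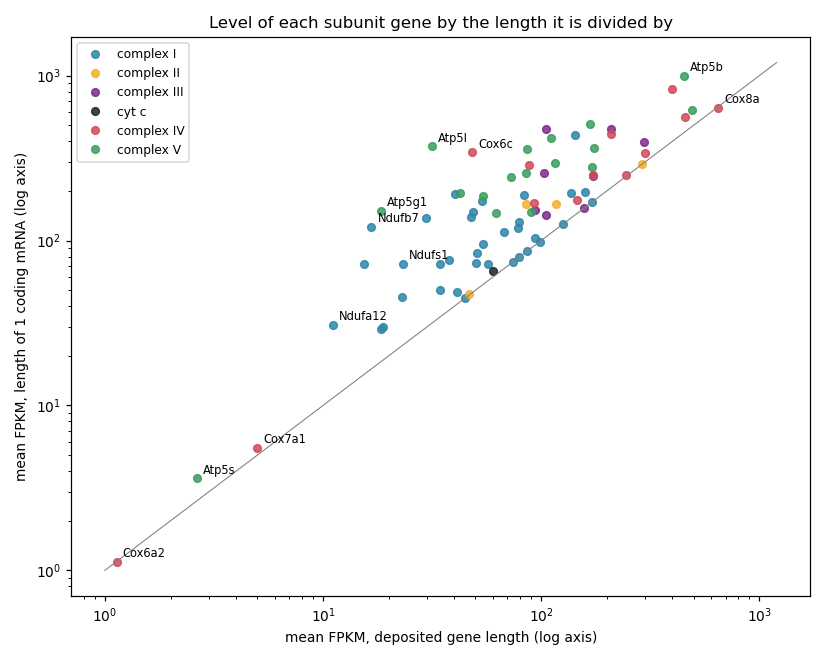
Mean level of each member past the filter over the 3 libraries, with reads divided by the deposited gene length (horizontal, log axis) or by the length of 1 coding mRNA (vertical, log axis); the line marks equal values. Cox8a and Cox7a1 lie close to the line, while Atp5l, Cox6c, Atp5g1 and Ndufb7 lie well above it.

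Complex V couples the flow of protons through its membrane part, Fo, to the synthesis of ATP in its F1 head. The catalytic head subunits Atp5a1 and Atp5b were its highest members: Atp5a1 at 501, 492 and 478 FPKM and Atp5b at 463, 454 and 434 FPKM. Per length of mRNA they were highest too, with means of 622 and 995 FPKM. Each was lower in both TSH libraries beyond counting error and T2 was the lowest, with ratios for Atp5b of 0.980 (0.965 to 0.996) and 0.939 (0.924 to 0.953). With 25342 to 32241 reads per gene and library these intervals are narrow. The central stalk subunits Atp5c1, Atp5d and Atp5e gave a summed ratio of 0.989 in T1 and 0.996 in T2, with intervals that include 1. The small membrane subunits of Fo were the part that was higher. Atp5k, which takes part in dimer formation, stood at 83.3, 89.6 and 96.4 FPKM, highest in T2 at a ratio of 1.16 (1.06 to 1.27). Atp5l, its neighbour in the dimer, stood at 29.9, 32.0 and 32.5 FPKM, higher in both; with the reads of its copies added the ratio was 1.04 (0.9995 to 1.09) in T1, which includes 1, and 1.06 (1.01 to 1.10) in T2. Atp5j2 and Atp5mpl had intervals that include 1. Summed reads of these 4 were 1.04 times RANKL alone (1.01 to 1.07) in T1 and 1.05 times (1.02 to 1.09) in T2, whereas those of the head were 0.981 times (0.970 to 0.993) and 0.945 times (0.934 to 0.956). In the peripheral stalk, which holds the head still, Atp5o stood at 57.9, 61.0 and 67.3 FPKM, highest in T2 at a ratio of 1.16 (1.09 to 1.24). Other annotated genes overlap 12.3% of its length on the same strand and 35.6% on the opposite strand, so its reads may be shared. Atp5f1 stood at 120, 112 and 116 FPKM, lowest in T1. Over the 17 members past the filter T1 had 3 lower (17.6%) and 2 higher (11.8%), and T2 had 6 (35.3%) and 4 (23.5%). All genes gave 12.2% and 10.8% in T1, and 13.2% and 10.2% in T2. Protein-coding genes at 50 to 100 FPKM, around the median level of 86.1 in complex V, gave 23.5% and 31.0% lower. Those at 100 to 1000 FPKM gave 35.5% higher in T1 and 23.8% in T2, so the higher calls of complex V did not exceed that range. The median log2 changes of complex V were -0.02 in T1 and -0.03 in T2, and the T1 median was 0.02 with the reads of copies added. Atp5s, which has the name but is not a subunit of the enzyme proper, had 101, 90 and 79 reads. It is 1 of the 6 counted lower in T2, at a ratio of 0.720 (0.529 to 0.976).

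The ring genes differed from each other in their ratios. Atp5g3 was the highest on FPKM, at 171, 169 and 160, and per length of mRNA, with a mean of 509 FPKM, and was lower in T2 at a ratio of 0.935 (0.902 to 0.969). Atp5g2 stood at 107, 113 and 113 FPKM and was higher in both TSH libraries. Atp5g1 stood at 19.7, 19.1 and 16.4 FPKM and had the largest fall of the ring genes in T2, with a ratio of 0.831 (0.773 to 0.893). Its reads numbered 1563, 1572 and 1411, while its pseudogene Gm10039, with the single differing base shown above, was given 1884, 2088 and 2133 reads. With both added, the ratio in T2 was 0.946 (0.902 to 0.992), and in T1 1.02 (0.975 to 1.07). How the counting placed reads that match both is not given in the sources used here.

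Among the members 28 have such a copy, and 43 of 88 copies had reads. For Ndufa12 the copy had more reads than the gene itself: 262, 307 and 311 against 887, 936 and 924 for Gm15920. Atp5l had 3105, 3459 and 3674 reads and its identical copy Gm10221 had 1276, 1293 and 1356. For Atp5h, a peripheral stalk subunit, the copy Gm10250 was highest in T1, with 323, 467 and 344 reads. Atp5h itself had a T1 ratio of 1.02 (0.961 to 1.09), and with its copies 1.07 (1.01 to 1.13). Without the 27 members past the filter that have copies, 51 remain, of which T1 had 11 lower and 3 higher and T2 had 20 and 2. All genes gave 12.2% lower and 10.8% higher in T1, and 13.2% and 10.2% in T2. Protein-coding genes at 50 to 100 FPKM gave 23.5% and 31.0% lower.

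**Figure D4:**
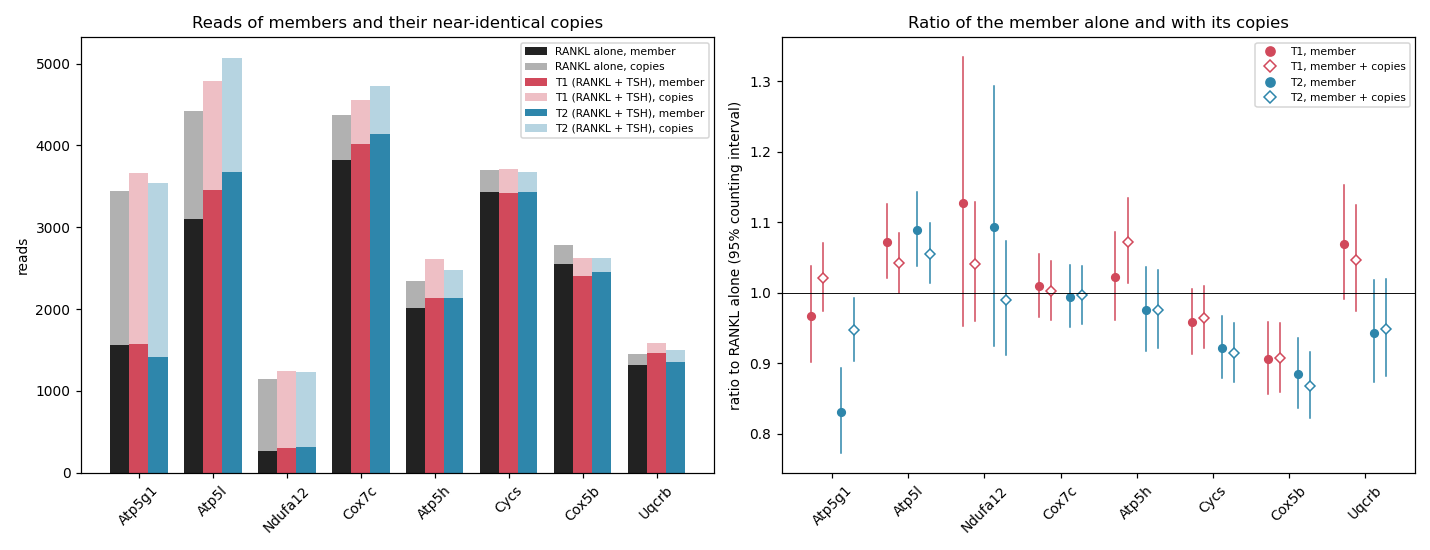
Left, reads of members whose copies had at least 100 reads with RANKL alone (full colour, the member; pale, its copies) in the 3 libraries. Right, ratio to RANKL alone for the member by itself (filled) and with its copies (open), with 95% counting intervals. For Atp5g1 the T2 ratio moves from 0.831 to 0.946 when the copy is added, while Cox5b stays below 1 on both.

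**Figure D5:**
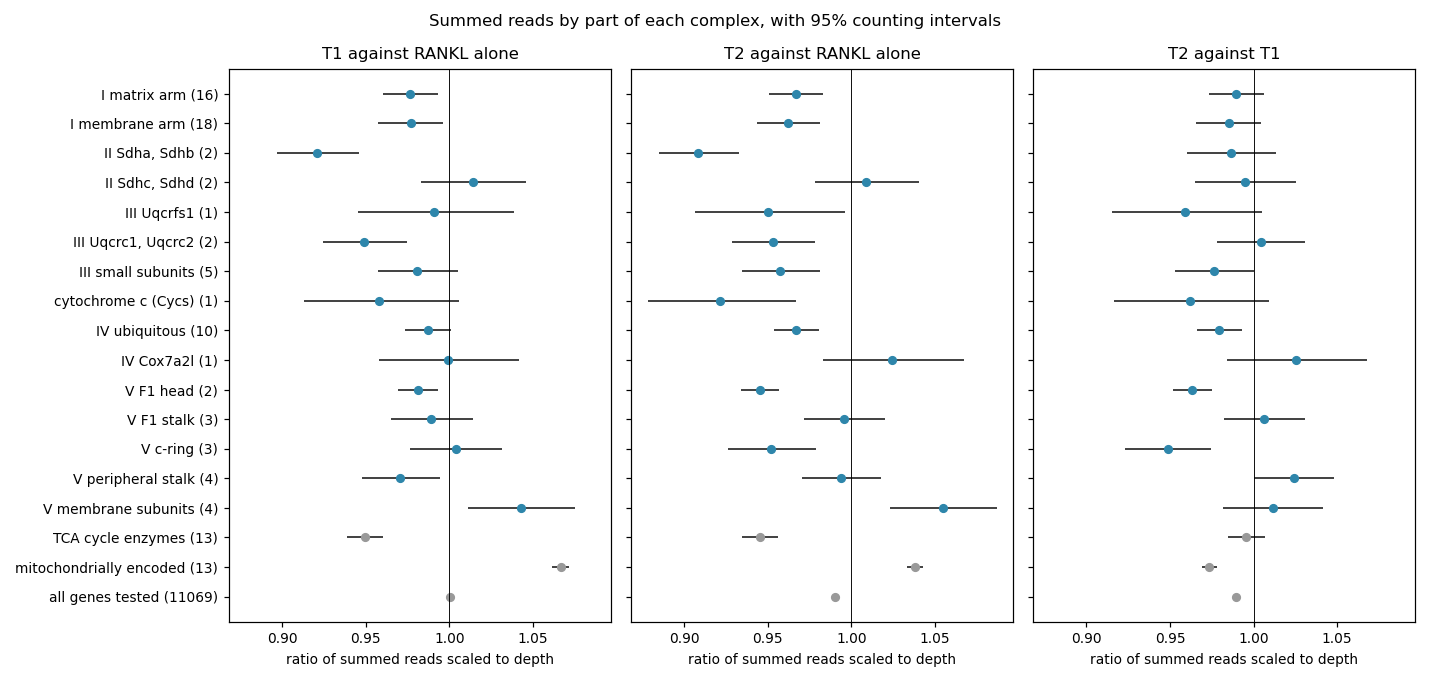
Ratio of summed reads scaled to depth, with 95% counting intervals, for parts of each complex (number of members past the filter in brackets) and, in grey, tricarboxylic acid cycle enzymes, mitochondrially encoded subunits and all genes. The matrix pair of complex II (0.921 and 0.908) and the head of complex V (0.981 and 0.945) lie below 1 in T1 and T2, the membrane subunits of complex V (1.04 and 1.05) above 1.

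The genes around the chain were measured too. Beside the counts below, all genes gave 12.2% lower and 10.8% higher in T1, and 13.2% and 10.2% in T2. The 13 subunits that mitochondrial DNA encodes changed mostly upwards: 10 were higher and 2 lower beyond counting error in T1, with a median log2 change of 0.15. In T2 9 were higher and 2 lower, with a median of 0.10. Protein-coding genes at 100 to 1000 FPKM gave 35.5% higher in T1 and 23.8% in T2. The largest rise was that of mt-Nd4l, a complex I subunit, at 37.8, 170 and 71.5 FPKM, and mt-Atp6, a complex V subunit, stood at 75.8, 281 and 106 FPKM. Both were highest in T1 by a wide margin. The lowest change was that of mt-Nd6, encoded on the other strand, at 1077, 997 and 970 FPKM. The mitochondrial genes overlap or adjoin one another, so reads may be shared between them. mt-Nd3, mt-Nd4l, mt-Co3 and mt-Atp6 had T1 ratios of 2.16 to 4.51 but means of only 10.9 to 154 FPKM. mt-Co2, at a mean of 129 FPKM, had 1.17, and the interval of mt-Atp8 included 1. The subunits above 1000 FPKM had T1 ratios of 0.926 to 1.11 and T2 ratios of 0.901 to 1.07. Copies of these genes in nuclear DNA were not searched for, and what sets the low levels was not tested. Tricarboxylic acid cycle enzymes, which feed the chain with NADH and succinate, numbered 13, of which T1 had 6 lower and 1 higher and T2 had 8 and 0. The lower calls are 46.2% and 61.5%, against 23.5% and 31.0% of protein-coding genes at 50 to 100 FPKM. Their medians were -0.05 and -0.08. Ogdh, a subunit of 2-oxoglutarate dehydrogenase, had the largest fall, at 50.8, 45.2 and 45.4 FPKM, and Suclg2, a subunit of succinyl-CoA ligase, the largest rise in T1, at 28.0, 29.95 and 28.3 FPKM. Of 8 genes of other electron input and ADP supply past the filter T1 had 3 lower and 1 higher, and so had T2. Etfa and Etfb encode the flavoprotein that passes electrons from fatty acid oxidation: Etfa stood at 96.2, 89.7 and 86.0 FPKM, and Etfb at 5.22, 6.46 and 7.06 FPKM. Of 11 genes for the transcription of mitochondrial genes T1 had 0 lower and 1 higher, Tfb1m at 2.59, 3.26 and 2.88 FPKM, and T2 had 2 and 1.

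Assembly factors, which build the complexes without staying in them, were counted apart. Beside their counts, all genes gave 12.2% lower and 10.8% higher in T1, and 13.2% and 10.2% in T2. Of 16 complex I factors T1 had 1 lower and 1 higher, and T2 had 0 and 4, with medians of 0.03 and 0.07. Ndufaf3 had the largest fall in T1, at 7.65, 5.52 and 6.70 FPKM, and Ndufaf7, a methyltransferase, the largest rise in T2, at 2.76, 3.06 and 3.58 FPKM. Of 20 complex IV factors past the filter T1 had 1 lower and 1 higher, and T2 had 4 and 1. Sco1, which delivers copper, rose to 6.50 FPKM in T2 from 4.79 with RANKL alone, whereas Cox11, another copper factor, stood at 7.89, 6.58 and 4.69 FPKM. The factors of complex II were mixed. Sdhaf4 stood at 10.1, 14.7 and 13.1 FPKM, higher in both, while Sdhaf2 stood at 15.3, 14.8 and 13.3 FPKM, lower in T2. Sdhaf1 had intervals that include 1, and Sdhaf3 was under the filter. Of the 6 factors of complex III none passed in T1, and in T2 Uqcc2 was lower, at 81.1, 79.4 and 73.0 FPKM, and Uqcc3 higher, at 22.1, 25.7 and 26.6 FPKM. Of the 4 factors of complex V Tmem70 was lower in T2, at 29.1, 26.6 and 25.8 FPKM, and no other passed. Of the other subunits outside the name rule Usmg5 of complex V stood at 417, 389 and 392 FPKM and Atpif1, the inhibitor of its ATP hydrolysis, at 61.4, 69.3 and 61.8 FPKM. Usmg5 was lower in both TSH libraries, and Atpif1 was higher in T1 alone.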

How the data were processed

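Total RNA from 3 cultures was made into libraries with a SMARTer mRNA-Seq kit, per the labels' protocols. GRCm38 and mm10, 2 names for 1 assembly, are the builds in the submitters' processing notes; which aligner and counting tool were used, and how they treated strand and reads with several positions, is not given in the sources used here. Values deposited by the authors are FPKM, that is reads per kilobase of gene, scaled to depth, with 1 column per library beside the gene length in bases; 0 per-sample columns were left unused. The library of RANKL alone was known from its column name; T1 and T2 share the TSH condition.

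Multiplying FPKM by gene length gave multiples of 1 step per library, and so the reads of each gene. All ratios and intervals use the depth that this step implies, not the sum of the reads, which differed from it by 0.178%, 0.241% and -0.757% (RANKL alone, T1, T2). All values above 0 that gave under 100 reads were whole within 0.01. For larger counts the limit was relative to the count, and the largest counts could not fail it, so for them it was no check. The count test on these reads needs replicates and was not run. Changes are log2 of (FPKM + 1), a scale on which low genes change less, and the filter was a mean of 1 FPKM. Ratios carry exact conditional (Clopper-Pearson) 95% intervals; they cover counting error only, since PCR duplicates are not independent. Copies are transcripts of GENCODE M21 that BLAST+ 2.17.0 aligned with 95% identity or more, across 100 bases or more and 50% or more of the shorter sequence. Overlapping and antisense genes are uncertain too, and 12 members overlap another gene over at least 10% of their length. Named genes followed a rule: the 3 highest and 3 lowest members per complex, the 2 largest rises and falls per complex and comparison, the core and isoform genes, and per other list the largest rise and fall, of which the text gives a part; others were chosen after their values were seen. The members, lists and tests were chosen with earlier results of these data known. The values of 1 member, which stays in the counts and sums, are not reported here. Functions were tested on simulated data. Alternatives tried were pseudocounts of 0.1 and 5, a filter at 5 FPKM or none, scaling to the same total FPKM or by median of ratios, means, and handling of copies. Python 3.11.15, pandas 2.3.3 and scipy 1.17.1 were used.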

Additional observations from a re-analysis of the deposited data

How the results depend on the processing

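With 1 library per group, differences between cultures cannot be told from differences between conditions, and genes under about 3 reads were beyond the depth. No paired analysis was possible because each group had a single library. Scaling each library to the same total FPKM shifted the median of all genes by -0.024, 0.0045 and 0.027 (T1, T2, T2 against T1) and moved most of what moved. In T1 the members' median became -0.0585, with 28 lower and 3 higher, and complexes I, III, IV and V became -0.0651, -0.0594, -0.0271 and -0.0464. In T2 against T1 the members' median turned to 0.0134, with 4 lower and 11 higher, and complexes I to V became 0.0239, 0.0035, 0.0109, 0.0113 and 0.0218. The mean of members in T1 was -0.0239, and that of complex V -0.0001. The complex V median in T1 was 0.0001 with a mean of at least 5 FPKM and 0.0210 with the reads of copies added. Without members that have copies, 11 were lower and 3 higher in T1, 2 higher in T2 and 1 higher in T2 against T1; the medians were -0.0674 for members in T2, -0.0605 for complex III in T1 and -0.0326 for complex V in T2 against T1. A 1.5-fold rule gave 1 member in T2, Cox7a1. Beyond their construction the cause was not tested. Other pseudocounts, no filter and median-of-ratios scaling kept these results within counting error.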
